A study of Danio rerio with 18 samples.

Results

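Interferon-stimulated genes are the genes that vertebrate cells switch on when interferon reaches them. The genes followed here are mxa, mxb, mxc, rsad2, isg15, irf7, ifih1 and pnpt1. These are 8 of 10 genes chosen, and they were found among the 19247 named genes of the expression table in 10 rows. A gene was found by its current or former symbol, and where it had several rows, the row was chosen by its measured mean over the 18 arrays, the highest being kept; the values of the groups were not used in that choice, but the names were proposed with results of these data known. That choice concerned mxb, with mean log2 intensities of 3.59 and 3.39 for its rows, and pnpt1, with 7.39 and 5.77. In outline, every Lycorine array of pnpt1 lay below every DMSO array in its brighter row, but not in its dimmer row. The gene isg15 was highest in kdrl+ cells by mean and lower with Lycorine on average. That averaged call was lost in 11 of 18 fits that left out 1 array. Under Lycorine, irf7 was lower in Runx+ than in kdrl+ cells, a call lost in all 6 such fits. The remaining 5 genes stayed dim with no difference past the test.

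As background, type I interferons bind receptors that signal through Janus kinases to STAT transcription factors, and these bind the promoters of antiviral genes. Infected cells start the loop with sensors of foreign RNA such as the helicase MDA5, the product of ifih1, and with interferon regulatory factors such as Irf7, which transcribe the interferon genes. Among the effectors, Mx proteins are dynamin-like GTPases that block viruses, Rsad2 (viperin) is a radical SAM enzyme that makes a chain-terminating nucleotide, and Isg15 is a ubiquitin-like protein that is conjugated to other proteins. Pnpt1 is polynucleotide phosphorylase, an exoribonuclease of mitochondria that is known in human cells as an interferon-induced gene. In mouse and zebrafish embryos, low-level interferon and inflammatory signalling is known to take part in the formation of blood stem cells from endothelium.

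All arrays came from zebrafish embryos of the AB strain carrying the transgenes Runx1+23:GFP and kdrl:DsRed2, in which an enhancer of Runx1 marks blood stem and progenitor cells and the promoter of the vascular receptor gene kdrl marks endothelium. Pools of embryos were kept from 2 to 3 days post fertilization (dpf) either in 75 µM Lycorine with 1% DMSO or in 1% DMSO alone, then dissociated and sorted at 3 dpf into Runx+ cells, kdrl+ cells and a negative fraction of all other cell types. Lycorine is a plant alkaloid known to inhibit protein synthesis. With 3 arrays for each of the 6 groups, called here DMSO negative, DMSO Runx+, DMSO kdrl+, Lycorine negative, Lycorine Runx+ and Lycorine kdrl+, the labels name biological replicates but do not say which arrays shared a pool; if the replicates were splits of 1 pool, the p-values measure technical spread. The labels do not say where cells of both colours went.

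Levels are log2 intensities after the authors' normalization, and the medians of the 18 arrays lay between 4.87 and 5.12. The sorts were checked with marker genes. All 16 measured endothelial markers were higher in kdrl+ than in negative cells under both treatments, with medians of 3.63 log2 in DMSO and 4.28 under Lycorine. None of the 11 measured blood stem cell markers passed the test between Runx+ and negative cells under either treatment. Of all genes only 0.0052% passed in DMSO and 0.0104% under Lycorine, so this count says little about the markers. By mean 7 of the 11 were higher and 4 lower in Runx+ cells under each treatment. The marker itga2b read 7.21, 5.93 and 6.90 in DMSO Runx+ cells against 4.53, 4.54 and 4.44 in DMSO negative cells. With Lycorine it read 4.91, 6.71 and 5.25 against 4.38, 4.75 and 4.45. The Runx+ fraction is called by its reporter here and not as stem cells. Of the same 11 markers, 7 were higher and 1 lower in kdrl+ than negative cells with DMSO (4.49% and 6.02% of all genes). With Lycorine 6 were higher (6.56%). Some of these markers, such as ptprc, are not limited to stem cells, so the counts do not tell which cells of the kdrl+ fraction carried them. Genes of liver, pancreas and gut were highest in the DMSO arrays numbered 2, where the mean level of the list was 8.70, 7.55 and 8.06 in negative, Runx+ and kdrl+ cells, and in DMSO Runx+ replicate 3 with 7.28. All other arrays lay between 5.11 and 6.14, so on this list the DMSO arrays were uneven and the Lycorine arrays were not. In such sorted pools, fewer cells of a type and less RNA per cell cannot be told apart.

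The 8 measured genes differed in brightness. The highest group mean of isg15, irf7 and pnpt1 lay above 4.97, the median of the whole table, while that of mxa, mxb, mxc, rsad2 and ifih1 lay below it. The range between a gene's highest and lowest group mean was 1.99 log2 for isg15, 1.64 for irf7 and 1.46 for pnpt1. It was 0.80 for mxc, 0.42 for mxa, 0.42 for mxb, 0.38 for ifih1 and 0.21 for rsad2, against a median of 0.69 over all genes. For isg15, 3 of the 6 group means lay above the table median. A gene enters the first set through its highest group, so brightness and range are not separate facts. Levels of different genes come from different probes and are not ranked against each other.

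**Figure D1:**
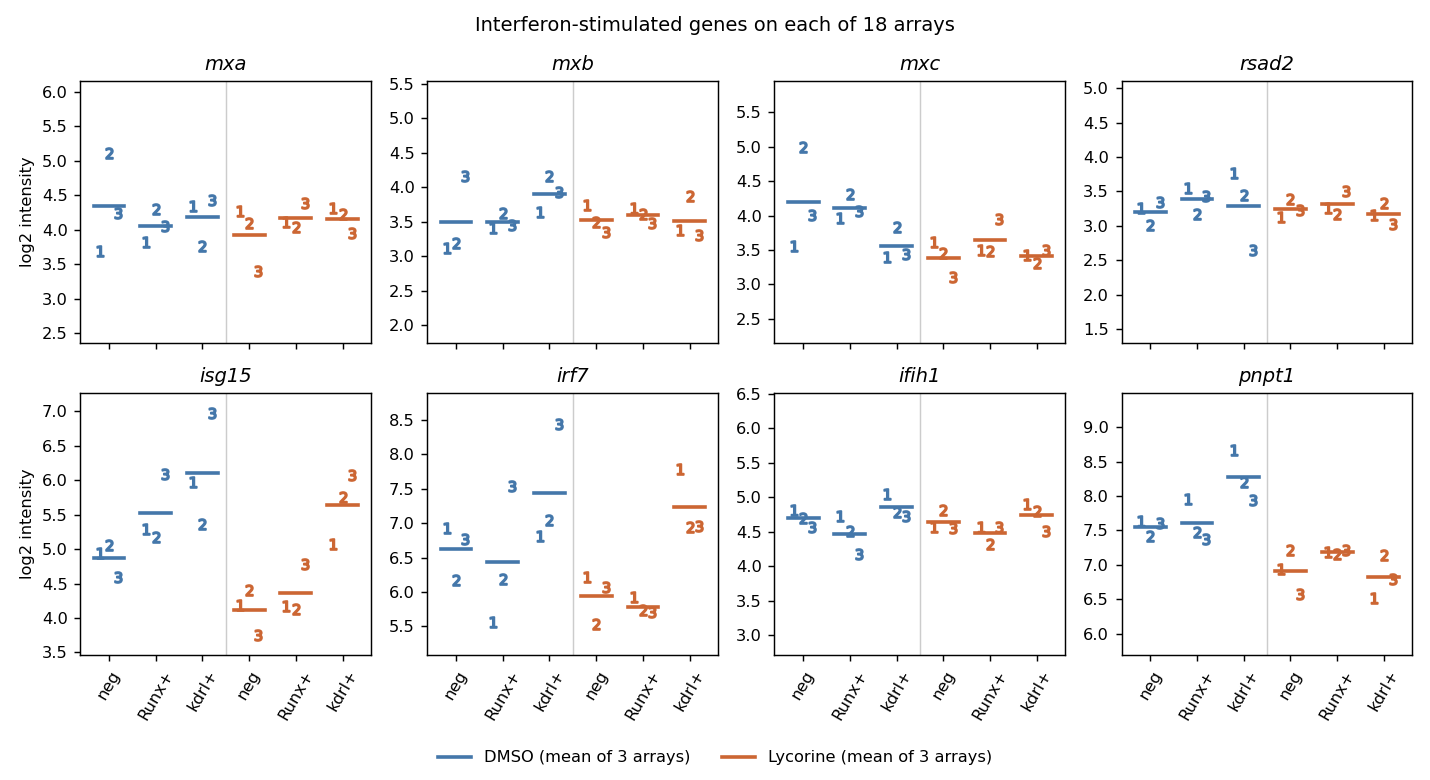
Log2 intensity (y axis) of the 8 measured interferon-stimulated genes in each of the 6 groups (x axis), with 1 point per array and a bar at the mean of 3 arrays. In the brighter row of pnpt1 the 9 Lycorine arrays lie between 6.51 and 7.22 and the 9 DMSO arrays between 7.38 and 8.67. The level of rsad2 stays between 2.64 and 3.76 throughout.

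The antiviral effectors of the Mx family showed no difference past the test in any of the 13 comparisons. The level of mxa ranged from 3.40 in Lycorine negative replicate 3 to 5.12 in DMSO negative replicate 2, and its group means only from 3.93 to 4.35. All pairs of groups next to each other in that order overlapped. Its difference between Lycorine and DMSO, averaged over the sorts, was -0.11 log2 ± 0.18 (SE). The level of mxb ranged from 3.12 to 4.17, with both extremes in DMSO negative cells, and its averaged difference was -0.09 ± 0.15. The neighbours mxa and mxb lie side by side in the zebrafish genome, and Mx copies are similar in sequence, so their probes may share signal and the values of single Mx genes are uncertain.

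The third Mx gene, mxc, had group means farther apart than the other two. In DMSO negative cells it read 3.56, 5.0 and 4.01, and in Lycorine negative cells 3.61, 3.45 and 3.10, so the groups overlapped through replicate 1. In DMSO Runx+ cells it read 3.96, 4.31 and 4.07, above the 3.50, 3.48 and 3.95 of Lycorine Runx+ cells with no overlap. In kdrl+ cells it stayed low with both treatments, at 3.40, 3.84 and 3.44 in DMSO and 3.43, 3.32 and 3.50 with Lycorine. Averaged over the sorts its difference was -0.47 ± 0.16 log2, which did not pass the test (limma adjusted p = 0.0952). Of 18 fits that left out 1 array, 17 did not pass either (limma adjusted p up to 0.182). The 1 that passed left out DMSO negative replicate 1 (limma adjusted p = 0.0424).

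The antiviral enzyme gene rsad2 had the smallest range of group means. Its 18 values lay between 2.64 and 3.76, with both extremes in DMSO kdrl+ cells, where it read 3.76, 3.45 and 2.64. Its group means spanned only 3.18 to 3.39, and its averaged difference with Lycorine was -0.05 ± 0.14 log2. No separation of groups was detectable for rsad2 at this signal.

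The modifier gene isg15 showed the widest range. It read 5.98, 5.36 and 6.97 in DMSO kdrl+ cells, 5.29, 5.18 and 6.09 in DMSO Runx+ cells and 4.95, 5.05 and 4.59 in DMSO negative cells. With Lycorine it read 5.08, 5.75 and 6.07 in kdrl+ cells, 4.17, 4.13 and 4.79 in Runx+ cells and 4.19, 4.41 and 3.75 in negative cells. By mean the order was DMSO kdrl+ at 6.10 ± 0.81 (SD, n = 3), Lycorine kdrl+ at 5.63 ± 0.51, DMSO Runx+ at 5.52 ± 0.50, DMSO negative at 4.86 ± 0.24, Lycorine Runx+ at 4.36 ± 0.37 and Lycorine negative at 4.12 ± 0.34. Neighbours in that order overlapped, except DMSO Runx+ and DMSO negative cells, whose arrays were apart with Runx+ cells higher, as for 4.77% of all genes. The kdrl+ fraction was thus the highest of its treatment by mean with DMSO and with Lycorine.

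The kdrl+ excess of isg15 over negative cells was 1.24 ± 0.37 log2 in DMSO, or 2.36-fold (limma adjusted p = 0.0384). Under Lycorine it was 1.51 ± 0.37, or 2.86-fold (limma adjusted p = 0.0108), with the arrays of both sorts apart in either treatment. Leaving out single arrays ended these calls: in DMSO, negative replicate 1 or 3 or kdrl+ replicate 1 or 3 gave adjusted p of 0.0804, 0.147, 0.0604 and 0.192. Without kdrl+ replicate 3 of DMSO the difference fell to 0.80, and without all 3 DMSO arrays numbered 3 to 0.67. Under Lycorine the call ended without kdrl+ replicate 2 or 3 or negative replicate 3, at adjusted p of 0.053, 0.0546 and 0.0594, and the difference stayed between 1.30 and 1.79.

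Lycorine was accompanied by lower isg15 in all 3 sorts by mean. The difference from DMSO was -1.16 ± 0.37 log2 in Runx+ cells, -0.74 ± 0.37 in negative cells and -0.47 ± 0.37 in kdrl+ cells, none past the test (limma adjusted p = 0.2, 0.742 and 0.638). In Runx+ and in negative cells every DMSO array lay above every Lycorine array, and in kdrl+ cells the treatments overlapped. Averaged over the sorts isg15 fell by 0.79 ± 0.21 log2, or 1.73-fold (limma adjusted p = 0.0401). That call was lost in 11 of the 18 fits that left out 1 array, at adjusted p up to 0.091, and with arrays of the same treatment and number as a random block it reached an adjusted p of 0.101.

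The transcription factor gene irf7 had its highest means in kdrl+ cells. It read 6.82, 7.04 and 8.43 in DMSO kdrl+ cells and 7.79, 6.94 and 6.96 in Lycorine kdrl+ cells. In negative cells it read 6.93, 6.17 and 6.76 with DMSO and 6.22, 5.54 and 6.07 with Lycorine. Runx+ cells were uneven in DMSO, at 5.57, 6.20 and 7.54, and even with Lycorine, at 5.92, 5.73 and 5.71. Under Lycorine every kdrl+ array thus lay above every Runx+ and every negative array, whereas in DMSO the 3 sorts overlapped.

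Under Lycorine irf7 was lower in Runx+ than in kdrl+ cells by 1.44 ± 0.45 log2, or 2.71-fold (limma adjusted p = 0.0422). The call rested on all 6 arrays compared, since leaving out any 1 of them gave adjusted p between 0.0622 and 0.169. Its excess in kdrl+ over negative cells under Lycorine was 1.28 ± 0.45 (limma adjusted p = 0.0698, and 0.0463 with the replicate number as a block). In DMSO the same sort differences were -0.99 ± 0.45 and 0.81 ± 0.45 (limma adjusted p = 0.197 and 0.299). The Lycorine difference averaged over the sorts was -0.51 ± 0.26 (limma adjusted p = 0.23).

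The RNA sensor gene ifih1 was nearly level. Its values ran from 4.17 in DMSO Runx+ replicate 3 to 5.04 in DMSO kdrl+ replicate 1. Kdrl+ cells had the highest mean and Runx+ cells the lowest with both treatments, at 4.85 and 4.47 in DMSO and 4.74 and 4.48 with Lycorine. None of its 13 comparisons passed the test, and its averaged Lycorine difference was -0.05 ± 0.11 log2.

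The mitochondrial nuclease gene pnpt1 gave the clearest separation by treatment, in the brighter of its 2 rows. In DMSO it read 7.64, 7.42 and 7.61 in negative cells, 7.96, 7.48 and 7.38 in Runx+ cells and 8.67, 8.21 and 7.94 in kdrl+ cells. With Lycorine it read 6.93, 7.21 and 6.57, then 7.19, 7.15 and 7.22, then 6.51, 7.15 and 6.79 in the same order of sorts. All 9 DMSO arrays (7.38 to 8.67) lay above all 9 Lycorine arrays (6.51 to 7.22), which holds for 25 genes, or 0.13% of those tested. The means in DMSO were 7.56 ± 0.12 (SD, n = 3) in negative, 7.61 ± 0.31 in Runx+ and 8.27 ± 0.37 in kdrl+ cells, and the kdrl+ mean stood highest although the arrays of kdrl+ and Runx+ cells overlapped.

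In kdrl+ cells pnpt1 fell by 1.46 ± 0.24 log2 with Lycorine, or 2.74-fold (limma adjusted p = 0.0357). The differences in negative and Runx+ cells, -0.65 ± 0.24 and -0.42 ± 0.24, did not pass (limma adjusted p = 0.642 and 0.457). Averaged over the sorts the fall was 0.84 ± 0.14 log2, with a 95% interval of -1.13 to -0.55 (limma adjusted p = 0.00531), and it passed in all 18 fits that left out 1 array (adjusted p between 0.00303 and 0.0157). The kdrl+ call was lost without DMSO kdrl+ replicate 1, Lycorine kdrl+ replicate 1 or Lycorine kdrl+ replicate 3, at adjusted p of 0.13, 0.202 and 0.223. The Lycorine difference in kdrl+ cells minus that in negative cells was -0.81 ± 0.33 (95% interval -1.51 to -0.10), and that in Runx+ minus that in kdrl+ cells was 1.04 ± 0.33 (0.33 to 1.74). Neither passed after adjustment over all genes (limma adjusted p = 0.999 and 0.983; unadjusted 0.0272 and 0.00639), so a difference between sorts is neither shown nor excluded.

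The dimmer pnpt1 row did not repeat the separation. It read 5.79, 5.63 and 5.97 in DMSO negative, 5.74, 5.02 and 5.63 in DMSO Runx+ and 5.90, 6.85 and 6.28 in DMSO kdrl+ cells, against 5.48, 5.72 and 5.41, then 5.86, 5.79 and 5.51, then 5.85, 5.75 and 5.57 with Lycorine. Its kdrl+ arrays kept the direction, each DMSO array lying above each Lycorine array. Their difference of -0.62 ± 0.24 log2 did not pass over the 20806 rows with 1 gene symbol (limma adjusted p = 0.356). In Runx+ cells its difference was 0.25 ± 0.24, of the opposite sign to the brighter row, and averaged over the sorts it was -0.21 ± 0.14 (limma adjusted p = 0.36). With the mean of both rows, the difference in kdrl+ cells became -1.04 (limma adjusted p = 0.0787) and the average -0.53 (limma adjusted p = 0.0207). Which exons each row reads was not analysed here.

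**Figure D2:**
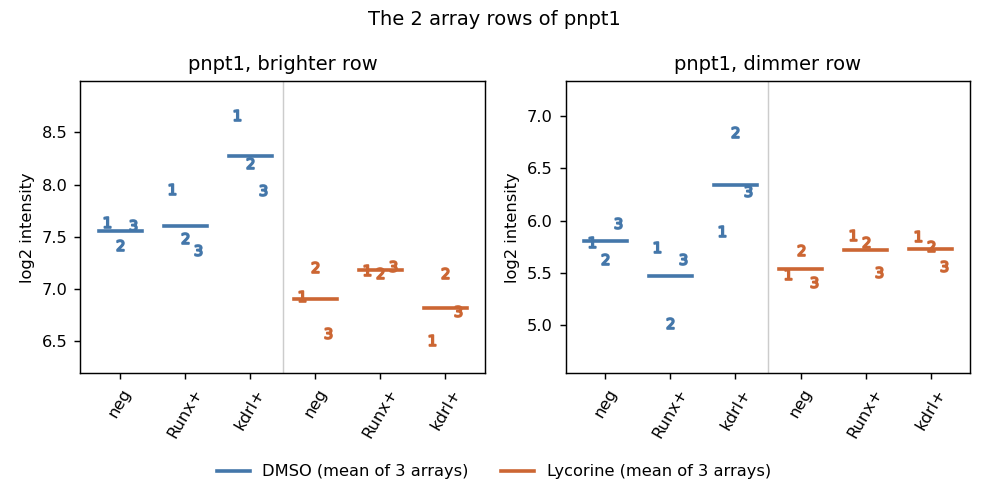
Log2 intensity (y axis) of the brighter and the dimmer row of pnpt1 in the 6 groups (x axis), with 1 point per array and a bar at the mean of 3 arrays. The treatments are apart in the brighter row, and in the dimmer row the arrays of negative and Runx+ cells overlap between treatments.

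Taking the 8 genes as a list, comparisons of Lycorine with DMSO within a sort called 1 gene in all. In negative and in Runx+ cells 0 of 8 passed, as did 0% of all genes by limma (up to 1107 genes in Runx+ cells when 1 array was left out), where an unadjusted p under 0.05 was reached by 6.76% and 13.5% of genes and by 2 and 1 of the 8. In kdrl+ cells pnpt1 was the 1 called, lower, among 0.0364% of genes called lower. Averaged over the sorts, isg15 and pnpt1 were called lower, 2 of 8, beside 2.81% of all genes. With arrays of the same treatment and number as a random block, pnpt1 remained called (limma adjusted p = 0.0194) and isg15 did not. Markers of other tissues differed in the same average. Of 8 muscle markers 5 were lower, with a median of -0.98 log2. Of 7 measured neural markers 3 were higher, with a median of 0.66, beside 2.29% of all genes. The liver, pancreas and gut list, uneven between DMSO arrays, was lower with Lycorine by mean level in each sort. It read 5.26 against 6.73 in negative, 5.55 against 6.73 in Runx+ and 5.33 against 6.39 in kdrl+ cells. By mean level the erythroid, epidermis and mesenchyme lists were also lower in each sort. Among blood and vessel lists, 4 of 14 myeloid and 1 of 11 blood stem cell markers were lower in the fit without a block. There 1 of 16 endothelial markers was higher and 0 of 7 lymphoid markers passed. Their part in the differences of isg15 and pnpt1 was not tested. These comparisons share arrays and are not independent of each other. The 8 genes were chosen with earlier results of these data known. Their shares beside those of all genes, here and elsewhere, are therefore descriptive and not a test of the list.

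Averaged over the sorts, 8 of 8 genes had a negative difference with a median of -0.29 log2, beside 59.6% of all genes and a median of -0.07. The mean was lower under Lycorine in each of the 3 sorts for isg15, irf7, mxc and pnpt1, 4 of 8, beside 31.7% of all genes. Arrays did not overlap between treatments, with Lycorine lower, for isg15 and pnpt1 in negative cells (11.7% of all genes), for isg15, mxc and pnpt1 in Runx+ cells (8.62%) and for pnpt1 in kdrl+ cells (10.2%). No difference of Lycorine effects between sorts was called for these 8 or for any other gene by limma, and an unadjusted p under 0.05 was reached by 1.67% of genes for Runx+ against negative cells, 2.66% for kdrl+ against negative cells and 4.43% for Runx+ against kdrl+ cells. Among the 8 the counts were 0, 1 and 1, pnpt1 both times.

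**Figure D3:**
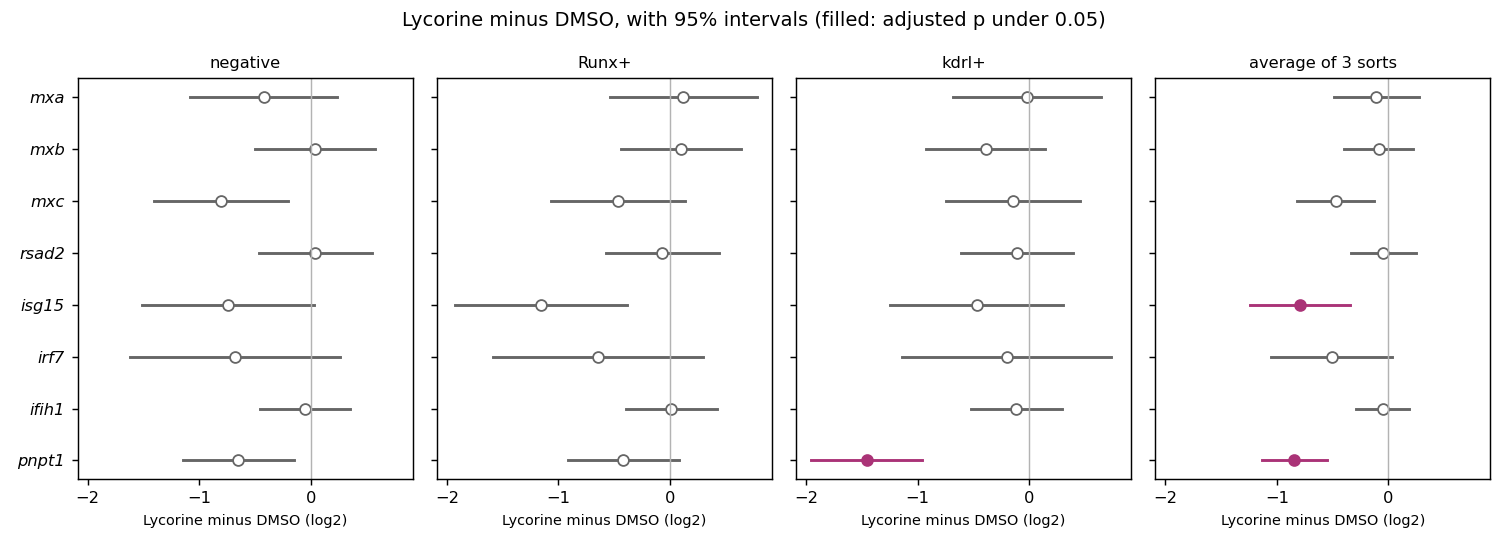
Difference of Lycorine from DMSO in log2 intensity (x axis) for each of the 8 genes (y axis), within each sort and averaged over the sorts, with 95% intervals as bars and called differences as filled points. All 8 averages lie below 0, and pnpt1 in kdrl+ cells lies farthest out at -1.46.

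Between the sorts, calls were few. Against negative cells, kdrl+ cells had 1 of the 8 genes called higher with DMSO (4.49% of all genes) and 1 with Lycorine (6.56%), isg15 both times. Between Runx+ and kdrl+ cells 0 were called in DMSO (8.43% of all genes either way), and under Lycorine 2, isg15 and irf7, were lower in Runx+ cells (7.12%). For isg15 that last difference was -1.27 ± 0.37 log2 (limma adjusted p = 0.0309), and it was lost without Lycorine Runx+ replicate 1 or 2 or Lycorine kdrl+ replicate 2 or 3, at adjusted p of 0.0996, 0.111, 0.116 and 0.12. Runx+ and negative cells differed for none of the 8 in DMSO (0.0052% of all genes called) or under Lycorine (0.0104%), where isg15 differed by 0.66 ± 0.37 and 0.25 ± 0.37. These counts use the brighter row of pnpt1. Its difference between Runx+ and kdrl+ cells in DMSO was -0.67 ± 0.24 (limma adjusted p = 0.0943). The dimmer row, tested over all rows with 1 gene symbol, did pass there, at -0.88 ± 0.24 (limma adjusted p = 0.0325).

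With DMSO, the kdrl+ arrays of isg15 and pnpt1 all lay above the negative ones, a pattern of 8.83% of all genes. For pnpt1 the difference was 0.72 ± 0.24 (limma adjusted p = 0.0636, 0.0355 with the random block and 0.0417 with median centring), and under Lycorine it was -0.09 ± 0.24. Under Lycorine, isg15 and irf7 were apart in that direction (17.7% of all genes). Runx+ and kdrl+ cells under Lycorine were apart for isg15 and irf7, lower in Runx+ cells (18.1%), and for pnpt1, higher in Runx+ cells (22.2%), by 0.37 ± 0.24 (limma adjusted p = 0.356). Both separations of pnpt1 were in its brighter row, and in the dimmer row the arrays overlapped. There kdrl+ minus negative cells in DMSO was 0.54 ± 0.24 (limma adjusted p = 0.183). Runx+ minus kdrl+ cells under Lycorine was -0.003 ± 0.24 (limma adjusted p = 0.996).

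**Figure D4:**
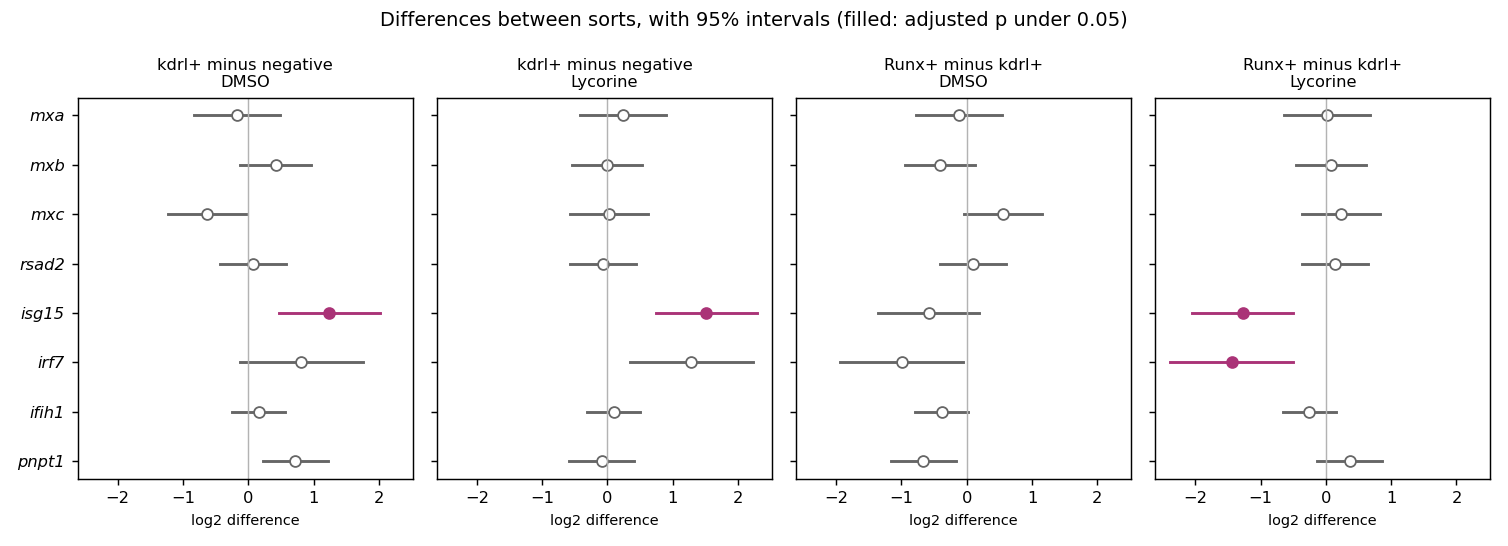
Difference between sorts in log2 intensity (x axis) for each of the 8 genes (y axis), in DMSO and under Lycorine, with 95% intervals as bars and called differences as filled points. The kdrl+ excess over negative cells is 1.24 and 1.51 for isg15, while mxa, mxb, rsad2 and ifih1 stay within 0.42 of 0 in every panel.

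Leukocyte markers were also highest in the kdrl+ fraction by mean. The mean log2 level of 14 measured of 17 listed myeloid markers was 7.99 to 8.44 in DMSO kdrl+ cells and 7.50 to 7.86 in Lycorine kdrl+ cells. It was 6.41 to 7.05 in DMSO negative cells, 6.18 to 6.48 in Lycorine negative cells and 5.78 to 6.12 in Lycorine Runx+ cells. In DMSO Runx+ cells it was 6.53, 6.14 and 7.76, and replicate 3, the high one, was also the highest of its group for isg15 and irf7. The same comparison in other groups was mixed. In DMSO kdrl+ cells the list, isg15 and irf7 were all highest in replicate 3. In Lycorine kdrl+ cells the list read 7.86, 7.76 and 7.50, where irf7 read 7.79, 6.94 and 6.96 and isg15 read 5.08, 5.75 and 6.07. In Lycorine negative cells the list and irf7 were highest in replicate 1 and isg15 in replicate 2. In DMSO negative cells the list and isg15 were highest in replicate 2, where irf7 was lowest. In Lycorine Runx+ cells the list was highest in replicate 2 and neither gene was. Of the 14 markers 8 were higher in kdrl+ than in negative cells with DMSO (4.49% of all genes) and 8 with Lycorine (6.56%). Among them the neutrophil peroxidase gene mpx differed by 2.87 ± 0.57 and 2.69 ± 0.57 log2. The macrophage gene mpeg1.1 differed by -0.31 ± 0.30 and 0.01 ± 0.30. With Lycorine 4 of the 14 were lower on average over the sorts (2.81% of all genes), coro1a and srgn among them. These calls are from the fit without a block, and whether they hold with the random block is not reported here. The part of these cells, and of the cells behind the endothelial and blood stem cell markers above, in the differences of isg15 and irf7 was not tested.

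Around these genes, 107 further measured genes of the interferon pathway were counted by role. Among interferons and their receptors, 13 of 15 listed genes were measured. The mean level of these 13 was dim, from 4.04 to 4.31 by group, below the table median of 4.97. For Lycorine none passed in negative, Runx+ or kdrl+ cells (0%, 0% and 0.052% of all genes) or on average (5.1%). In kdrl+ against negative cells 0 passed in DMSO (10.5% of all genes either way). Under Lycorine 2 were higher (6.56%), including crfb4, a cytokine receptor chain, by 1.51 ± 0.35 log2. Of 16 measured signalling genes, pias1a, an inhibitor of Stat proteins, was higher with Lycorine on average by 0.49 ± 0.11 (limma adjusted p = 0.0233, and 0.068 with the random block), and none was lower. The kinase genes tyk2 and jak2b exceeded negative cells in the DMSO kdrl+ fraction (4.49% of all genes), by 1.21 ± 0.27 and 0.94 ± 0.25 (limma adjusted p = 0.0078 and 0.024). Of 6 fits that left out 1 array, the call was lost in 1 for tyk2 and 3 for jak2b. Under Lycorine 4 signalling genes were higher in kdrl+ cells (6.56% of all genes). Among them was ptpn6, a phosphatase of blood cells, by 2.07 ± 0.51 (limma adjusted p = 0.0114). Another was socs3a, a feedback inhibitor of cytokine signalling, by 1.27 ± 0.38 (limma adjusted p = 0.0347). Of 6 fits without 1 array, 2 lost the call for ptpn6 and 3 for socs3a.

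Several other interferon regulatory factors changed with treatment. With Lycorine, averaged over the sorts, irf1b fell by 0.81 ± 0.22 log2, irf4b by 0.65 ± 0.17, irf8 by 0.53 ± 0.14 and irf5 by 0.53 ± 0.14, while irf2a rose by 0.75 ± 0.17. These are 4 lower and 1 higher of 9 measured factors, with limma adjusted p between 0.0229 and 0.0436, beside 2.81% of all genes called lower and 2.29% called higher. None of the 5 was called with the random block, at limma adjusted p of 0.0561 (irf2a), 0.0827 (irf1b), 0.0893 (irf4b), 0.0921 (irf5) and 0.115 (irf8), and each lost its call in some fits that left out 1 array, from 3 of 18 for irf2a to 15 of 18 for irf8. Irf8 is known in zebrafish as the factor that macrophages need, and Irf4 as a factor of lymphoid cells in mammals. With DMSO, irf4a, irf4b and irf5 were higher in the kdrl+ than in the negative fraction by 1.95 ± 0.28, 1.77 ± 0.30 and 0.79 ± 0.24 (4.49% of all genes), and irf2a was lower by -1.02 ± 0.29 (6.02%). Of 6 fits that left out 1 array, the call was lost in 0 for irf4a and irf4b and in 4 for irf5 and irf2a. Under Lycorine, irf4a, irf4b and irf3 were higher in kdrl+ cells (6.56% of all genes), by 1.68 ± 0.28, 1.09 ± 0.30 and 0.92 ± 0.23. Here 0, 5 and 2 of 6 fits without 1 array lost the call.

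For RNA and DNA sensing 25 names were listed, some of them former names of a gene also listed, and 15 genes were measured. For Lycorine none passed in negative, Runx+ or kdrl+ cells (0%, 0% and 0.052% of all genes) or on average (5.1%). Under Lycorine 2 were higher in kdrl+ than in negative cells (6.56% of all genes), including ikbke, a kinase that activates interferon regulatory factors, by 1.44 ± 0.27 log2. Of 69 further interferon-stimulated genes 54 were measured, and 0 passed for Lycorine averaged over the sorts by limma (5.1% of all genes), with 12 at an unadjusted p under 0.05 (24.8%). Their median difference was -0.17, with 44 of 54 negative, beside a median of -0.07 and 59.6% negative over all genes. With DMSO 4 of the 54 were higher in the kdrl+ than in the negative fraction, beside 4.49% of all genes. They were parp12a by 1.21 ± 0.28, ifi44g by 1.16 ± 0.20 and the immunoproteasome subunit gene psmb10 by 0.88 ± 0.24. The last was uba7, whose human product activates Isg15 for conjugation, by 0.67 ± 0.20. Of 6 fits that left out 1 array, the call was lost in 0 for ifi44g, 2 for parp12a, 3 for psmb10 and 4 for uba7. Under Lycorine 5 of the 54 were higher in kdrl+ cells, beside 6.56% of all genes. Among them were the guanylate-binding protein genes gbp1 by 1.66 ± 0.32 and gbp2 by 0.91 ± 0.23, sp100.4 by 1.36 ± 0.31 and ifi44g by 0.69 ± 0.20. Here 4 of 6 fits without 1 array lost the call for gbp2 and for ifi44g, and 0 for gbp1 and sp100.4.

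The other Mx genes mxd, mxe, mxf and mxg did not pass for Lycorine; their averaged differences were -0.37 ± 0.14, 0.14 ± 0.17, -0.36 ± 0.14 and -0.18 ± 0.13 log2. The gene cmpk2, which lies next to rsad2 and is induced with it in other vertebrates, differed by -0.44 ± 0.14 (limma adjusted p = 0.07). A list of 14 genes, mainly of mitochondrial RNA processing and decay, included pnpt1 itself, genes of the RNA exosome and the metabolic enzyme gene suclg1. Besides pnpt1, 11 of the list were measured. None of these passed in any comparison, where between 0% and 12.9% of all genes passed, so for 11 genes this count says little. In the Lycorine average, where 5.1% of all genes passed, 4 of the 11 had an unadjusted p under 0.05 (24.8% of all genes). Their median averaged difference was 0.21, above 0. Over all 107 pathway genes besides the 8, averaged over the sorts, 2 were higher and 4 lower with Lycorine (2.29% and 2.81% of all genes). Of the 107, 87 were negative, with a median of -0.16, beside 59.6% of all genes and a median of -0.07. In kdrl+ over negative cells 9 were higher and 1 lower in DMSO (4.49% and 6.02% of all genes) and 16 higher and 0 lower under Lycorine (6.56% higher).

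**Figure D5:**
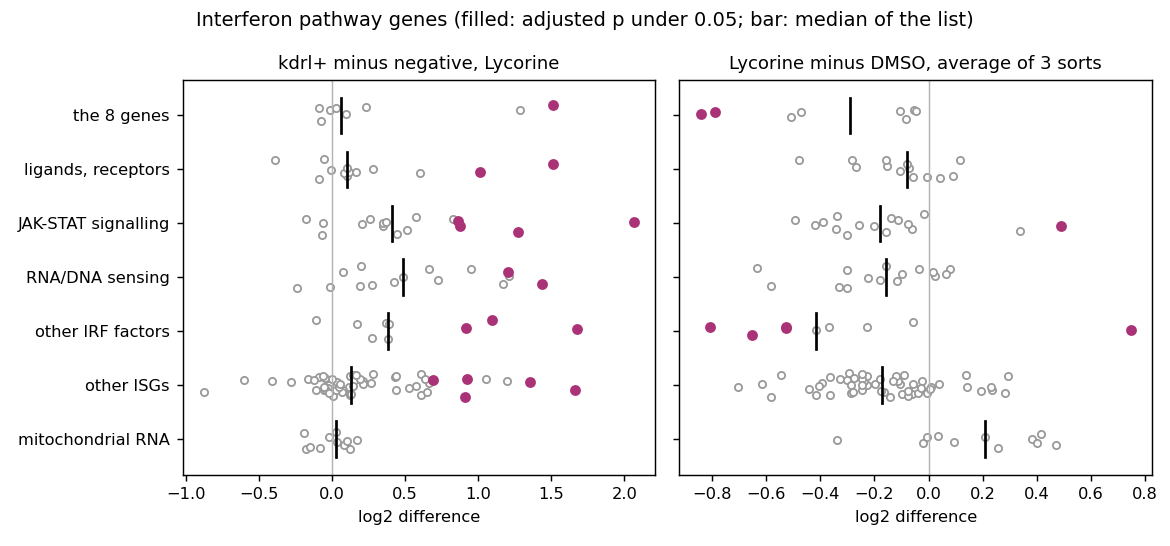
Difference in log2 intensity (x axis) of single genes (points, filled where called) of the lists of interferon pathway and mitochondrial RNA genes (y axis), with a bar at the median of each list, for kdrl+ minus negative cells under Lycorine (left) and for Lycorine minus DMSO averaged over the sorts (right). In the average, the median is -0.29 for the 8 genes and -0.17 for the 54 other interferon-stimulated genes.

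Most of the 8 genes correlated weakly with the others over the 18 arrays. The Pearson correlation of a gene with the mean standardized profile of the other 7 was 0.648 for pnpt1 and 0.506 for isg15, and between -0.063 and 0.265 for the remaining genes. Of these, mxa, mxb, mxc, rsad2 and ifih1 had every group mean below the table median, where array signal limits what a correlation can show. The mean profile of all 8 was highest in DMSO kdrl+ cells, with 0.94, 0.61 and 0.58 SD units, and lowest in Lycorine negative cells, with -0.34, -0.27 and -1.07. The genes outside the list whose levels correlated most with this profile over 18 arrays were cdin1 (r = 0.885), si:ch211-67f24.7 (0.875), zap70 (0.861), adora3a.1 (0.850) and tpst2 (0.848). They were followed by the chemokine receptor gene cxcr3.2 (0.831), which is also in the myeloid list, si:ch211-256a21.4 (0.827), bcl2l16 (0.825), slc14a2 (0.824) and LOC100151196 (0.823). These are the largest correlations among all genes outside the list, they share arrays and normalization with the profile, and they describe these 18 arrays alone.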

How the data were processed

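RNA of sorted cells from 18 samples was amplified, biotin-labelled and hybridized to 1-colour arrays. The deposited values are log2 intensities for 65528 rows; per the submitters' processing notes the authors used oligo, RMA and limma (their versions are not given in the sources used here). The values are taken as background-corrected, quantile-normalized and summarised, which hides any shift shared by all genes. Rows with 1 gene symbol (20806) were named through a RefSeq table of GRCz12tu, used for names and neighbours only; 855 rows had several symbols and 43867 none. The row with the highest mean over 18 arrays stood for a gene, which left 19247 genes, without a filter on dim ones.

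The means of the 6 groups were fitted to all 18 arrays with limma 3.58.1 in R 4.3.3 (lmFit, contrasts, eBayes, 2-sided, 17.4 total degrees of freedom), and p-values were adjusted by Benjamini-Hochberg over all genes within each of 13 comparisons; called means an adjusted p under 0.05. The median SE of a difference was 0.27 log2, and 3 arrays per group limit the precision. The script was tested on simulated data. Tables and figures were made with Python 3.11.15, pandas 2.3.3 and matplotlib 3.10.9.

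The genes and lists were chosen with earlier results of these data known. Of the 10 genes chosen, 2 are not reported here. Named from the lists were the genes past the threshold for Lycorine or for kdrl+ over negative cells (the 12 with the smallest p where there were more), and the 10 genes most like the mean profile. Other named Mx genes, cmpk2 and markers were chosen after their values were seen. Replicate numbers were checked as pairs by the correlation of their deviations from group means over genes. All 3 pairs exceeded 0.1 in the comparisons of Lycorine with DMSO in negative cells (0.15 to 0.31), of kdrl+ with negative cells in DMSO (0.12 to 0.39) and under Lycorine (0.22 to 0.42), and of Runx+ with kdrl+ cells in DMSO (0.33 to 0.42), but not in the other 5 direct comparisons. No arrays held identical values (highest correlation 0.984).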

Additional observations from a re-analysis of the deposited data

How the results depend on the processing

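Over 1935 values of the 8 genes under alternatives, 0 called differences turned their sign, 39 lost and 12 gained the threshold, 1756 stayed on their side with the same sign, and 128 uncalled differences changed sign. The number of the 8 genes called moved as follows. Weighting arrays gave 1 in Lycorine versus DMSO in Runx+ cells (0 before; isg15), 0 in kdrl+ versus negative cells in DMSO (1 before) and 2 under Lycorine (1 before; irf7 added). Fitting only the arrays compared gave 0 for Lycorine in kdrl+ cells (1 before), 0 for kdrl+ versus negative cells in DMSO and 2 under Lycorine. The mean of a gene's rows gave 0 for Lycorine in kdrl+ cells and 1 for Runx+ versus kdrl+ cells in DMSO (0 before; pnpt1). Median centring gave 2 for kdrl+ versus negative cells in DMSO. The replicate block gave 2 for kdrl+ versus negative cells under Lycorine (irf7 added) and changed no other call of these genes; as a random block within treatment (correlation 0.135) it gave 2 there, 2 in DMSO (pnpt1 added) and 1 for the Lycorine average (2 before). A pair of alternatives was chosen after seeing the data. Without the 3 DMSO arrays numbered 2, Lycorine in kdrl+ cells had 0; without those numbered 3, kdrl+ versus negative cells had 0 in DMSO and 2 under Lycorine, and the Lycorine average 1. Leaving out 1 array gave 0 to 1 for Lycorine in kdrl+ cells, for kdrl+ versus negative cells in DMSO and under Lycorine and for Runx+ versus kdrl+ cells in DMSO (pnpt1 without DMSO Runx+ replicate 1, irf7 without replicate 3), 0 to 1 for Runx+ versus kdrl+ cells under Lycorine, and 1 to 2 for the average. The cause of these moves was not tested beyond the fewer arrays some fits hold.

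Counts over all genes moved more. Leaving out 1 array gave 353 to 2395 for the Lycorine average, 0 to 424 for Lycorine in kdrl+ cells, 0 to 1107 in Runx+ cells, 0 to 1 in negative cells and 0 to 568 for Runx+ versus negative cells in DMSO. The Lycorine average went from 982 to 2536 with array weights, 177 with the random block, 514 without the DMSO arrays numbered 2 and 1866 without those numbered 3. Lycorine in kdrl+ cells went from 10 to 5 with median centring, 1 with only the arrays compared and 707 without the arrays numbered 3; in Runx+ cells from 0 to 952 with array weights and 21 with cyclic loess; in negative cells from 0 to 9 with array weights. With array weights, only the arrays compared and no arrays numbered 3, kdrl+ versus negative cells in DMSO went from 2023 to 1310, 730 and 725, and Runx+ versus kdrl+ cells in DMSO from 1623 to 1065, 172 and 773. Under Lycorine array weights and only the arrays compared gave 5880 and 5029 (2492 before) for kdrl+ versus negative and 6194 and 4895 (2455 before) for Runx+ versus kdrl+ cells. Runx+ versus negative cells went from 1 to 343 in DMSO and from 2 to 257 under Lycorine with array weights. Of the 8 genes 5 lie below the table median, where array signal limits what can be seen. Of the pathway genes named as called, 0 of 6 in the Lycorine average, 3 of 10 in kdrl+ versus negative cells in DMSO and 5 of 12 under Lycorine were called in every fit without 1 array.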
